A study of Homo sapiens with 12 samples.

Results

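Growth factor signals reach the nucleus through the RAS, RAF, MEK and ERK kinases, and this account follows 37 genes that answer to that pathway across 12 libraries of human prostate cancer cells. The genes form a list of names: the AP-1, EGR and KLF immediate early factors, the serum response factor SRF, the ERK-induced ETV factors, the feedback inhibitors of the DUSP, SPRY and SPRED families, and the targets ARC, IER2, IER5, PHLDA1 and EPHA2. All 37 were found among the 19973 genes of the expression table. The study raised the splice variant ARv7 in one cell line and lowered it in another. C4-2 is a castration-resistant derivative of the LNCaP line, and its cells carried a control lentivirus (C4-2 control) or one that expresses ARv7 (C4-2 ARv7). 22Rv-1 is a line from the CWR22R xenograft that makes ARv7 on its own, and its cells carried a control short hairpin (22Rv-1 shcontrol) or one against ARv7 (22Rv-1 shARv7). Each of the 4 groups had 3 libraries, one per dish, all cells had been selected with puromycin and grown in serum, and no time course or stimulus is in the labels. The labels do not tell how many independently selected lines stand behind a group, so p-values measure only the spread between dishes.

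Immediate early genes are switched on by ERK within minutes, without new protein synthesis. ERK phosphorylates ETS-family cofactors bound beside SRF at CArG boxes, and the FOS, EGR and IER genes are among the classical targets of that complex. FOS and JUN proteins pair to form AP-1. The induced set also holds its own brakes: DUSP phosphatases remove the activating phosphates from ERK, JNK or p38, and SPRY and SPRED proteins block signalling near RAS and RAF. ETV1, ETV4 and ETV5 are ETS factors of the PEA3 group, which are used with DUSP6, SPRY4 and others as a readout of ERK output. RNA levels of these genes do not measure ERK phosphorylation.

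Total counts ran from 12318529 to 14672948 per library, so that 3 counts in a library equal 0.204 to 0.244 CPM. CPM is the read count relative to the library total, with TMM factors over all 12 libraries, and lists of CPM values give replicates 1, 2 and 3. Adjusted p-values throughout are from edgeR's quasi-likelihood test with Benjamini-Hochberg adjustment over all genes tested, with 0.05 as the threshold. Statements that groups did not overlap describe the values listed, and the share of all genes without overlap was not counted. C4-2 control replicate 3 stood apart from its group, differing from replicates 1 and 2 by a chi-square of 12.3 and 6.85 times its degrees of freedom, against 2.1 to 4.64 times in the other replicate pairs. All 6 luminal prostate markers were above 3 counts in every library of each group. Summed markers of basal, endothelial and immune cells were at most 2.48, 9.02 and 4.07 CPM, those of fibroblasts ran from 7.94 to 43 CPM and those of neuroendocrine cells from 2.28 to 43 CPM. The 4 markers of dividing cells summed to 60.7 to 63.6 CPM in C4-2 control, 316 to 335 in C4-2 ARv7, 703 to 763 in 22Rv-1 shcontrol and 557 to 582 in 22Rv-1 shARv7. Their part in the results that follow was not tested. Without a scaling factor the median log2 change of all genes was 0.152 in place of 0.005 in C4-2, and 0.056 in place of 0.009 in 22Rv-1.

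The steady level of these genes differed more between the lines than with ARv7, as did that of genes in general. Their median absolute log2 difference was 1.51 between the control lines, 0.4 in C4-2 and 0.37 in 22Rv-1. Over all genes tested it was 0.88, 0.34 and 0.22. The medians of these genes cover 35, 26 and 35 of them. Those too low to test within C4-2 entered the first median through their 22Rv-1 reads, so a gap was built in for them. In C4-2 control cells 11 of the 37 genes averaged under 1 CPM: FOS, FOSL1, EGR1, EGR2, EGR3, EGR4, ARC, DUSP6, SPRY4, ETV1 and ETV4. The same 11 averaged under 1 CPM in C4-2 ARv7, while in 22Rv-1 shcontrol only FOSL1, EGR2, EGR4 and ARC did, and in shARv7 only FOSL1, EGR2 and EGR4. In bulk RNA, fewer cells that express a gene and less RNA per cell cannot be told apart. Summed over the 37 genes the mean level was 691 CPM in C4-2 control, 666 in C4-2 ARv7, 1117 in 22Rv-1 shcontrol and 1240.3 in 22Rv-1 shARv7. Per gene length, in FPKM, JUND stood first in every group, with 75.1 ± 3.82 in C4-2 control, 42.6 ± 1.7 in C4-2 ARv7, 52.5 ± 0.794 in 22Rv-1 shcontrol and 55.4 ± 4.03 in 22Rv-1 shARv7 (mean ± SD, n = 3 throughout). JUN and JUNB took the next places in each group and SRF the fourth, so the JUN genes and SRF were the best-expressed members whichever line or construct was looked at. EGR1 stood 26th of 37 in C4-2 control and 7th in 22Rv-1 shcontrol, and ETV5 moved between 28th and 6th. FOSL2 and DUSP4 did the opposite, from 5th to 26th and from 8th to 29th.

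**Figure D1:**
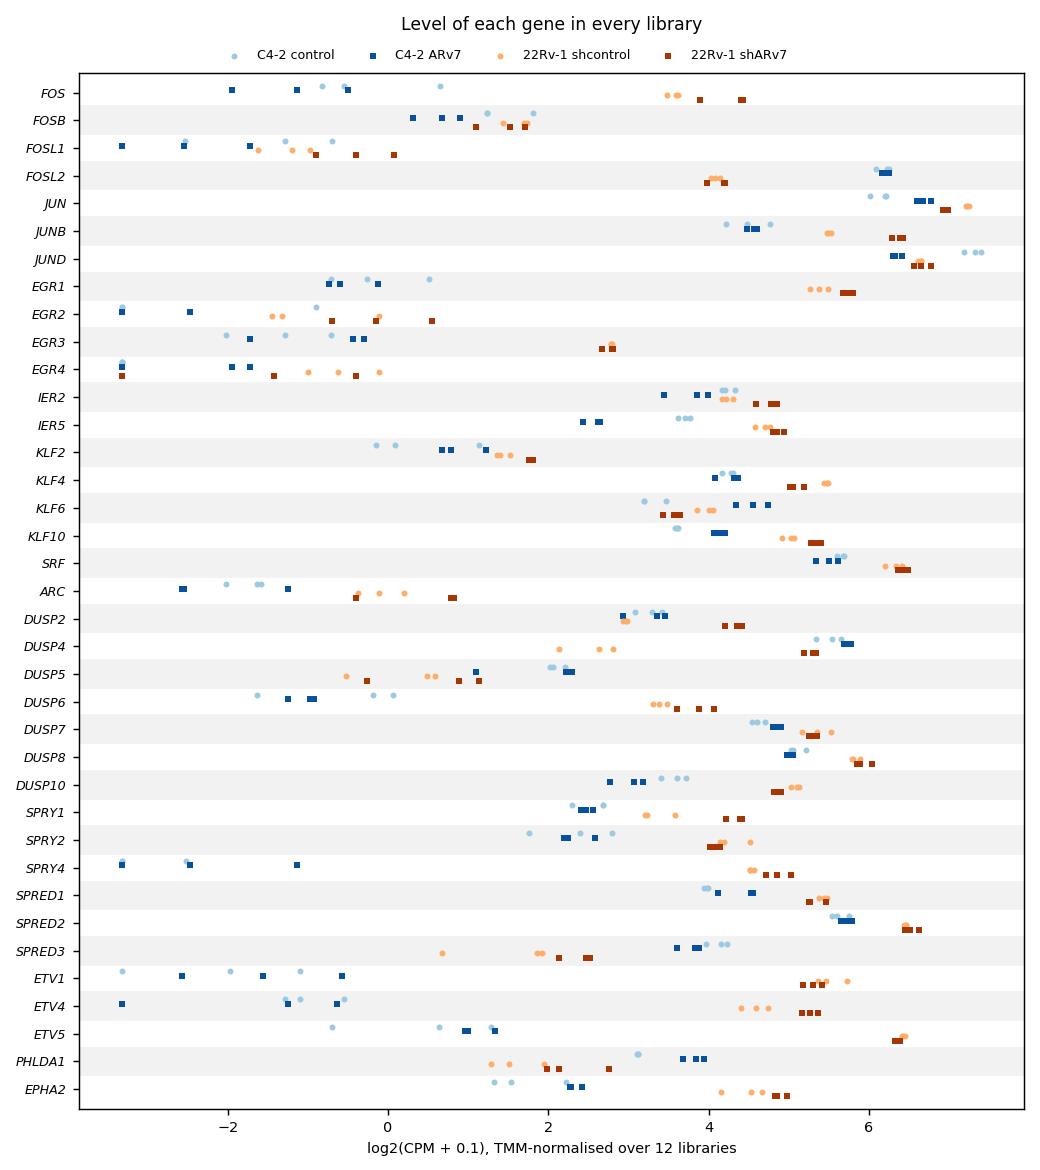
Level of each of the 37 genes in every library, on a log2(CPM + 0.1) axis; each point is 1 library, circles are control groups and squares the ARv7 or shARv7 groups. The 11 genes under 1 CPM in C4-2 lie at the left in blue, and most of their 22Rv-1 points lie far to the right.

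The stretch of DNA before the start site was read for 29 of the 37 genes, from RefSeq on GRCh38.p14, in 43 windows of 250 bases, since some genes have several start sites. ARC, DUSP4, DUSP5, EGR3, ETV4, ETV5, FOSL1 and KLF10 had no window. A CArG box, the SRF-binding motif, occurred on either strand in 3 of the 43 windows (EGR1, EGR2 and SRF), against 1.16% of 35116 windows of all genes. The cyclic AMP response motif TGACGTCA occurred in 3 (DUSP8, EPHA2 and JUND, against 1.65% of all), the AP-1 motif TGANTCA in 1 (SPRED3, against 6.57%) and the ETS core CCGGAA in 10 (against 14.5%), among them that of SRF. Absence from this window says nothing of motifs elsewhere. The windows of EGR1, SRF and JUND are shown, chosen with their levels known. EGR1 and SRF each hold a pair of CArG boxes, and JUND stood first of the 37 genes in FPKM in every group. Capitals mark the CArG boxes in EGR1 (chr5:138465229-138465478, plus strand, boxes that begin 105 and 83 bases before the start) and SRF (chr6:43171019-43171268, plus strand, 30 and 10 bases before it), and the TGACGTCA in JUND (chr19:18281623-18281872, minus strand, 200 bases before it).
EGR1: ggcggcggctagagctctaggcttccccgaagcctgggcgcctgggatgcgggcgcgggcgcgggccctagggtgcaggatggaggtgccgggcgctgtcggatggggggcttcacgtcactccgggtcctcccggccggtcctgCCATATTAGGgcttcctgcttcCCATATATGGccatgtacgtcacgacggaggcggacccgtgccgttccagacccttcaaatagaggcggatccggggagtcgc
SRF: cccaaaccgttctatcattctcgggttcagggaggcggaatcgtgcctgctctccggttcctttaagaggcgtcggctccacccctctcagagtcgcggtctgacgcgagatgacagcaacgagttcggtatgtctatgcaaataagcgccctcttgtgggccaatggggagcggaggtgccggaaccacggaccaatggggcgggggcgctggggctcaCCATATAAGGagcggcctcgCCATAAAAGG
JUND: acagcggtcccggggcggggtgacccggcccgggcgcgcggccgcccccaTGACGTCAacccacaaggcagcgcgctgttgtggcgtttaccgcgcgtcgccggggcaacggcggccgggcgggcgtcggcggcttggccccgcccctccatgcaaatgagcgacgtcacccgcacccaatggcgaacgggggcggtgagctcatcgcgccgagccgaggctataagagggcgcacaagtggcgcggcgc
Any relation of the boxes to the levels of these genes was not tested. SRF differed 1.59-fold between the control cells of the lines, EGR1 48.5-fold, and EGR2 stood under 1 CPM in all 4 groups.

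The control cells of the lines were compared first, as the ground on which ARv7 was raised or lowered. Some genes induced by ERK were far higher in 22Rv-1 shcontrol than in C4-2 control: all 3 ETV factors, EGR1, EGR3, FOS, DUSP6, SPRY2, SPRY4 and EPHA2. Others went the other way: DUSP4 and PHLDA1, also induced by ERK, were lower, as were SPRED3, FOSL2, DUSP5 and JUND. Of 35 genes tested, 25 were higher in 22Rv-1, 6 lower and 4 did not pass, while 83.4% of all genes tested passed in this contrast (42.5% higher, 40.9% lower), so the count alone is near the background. With at least a 2-fold difference 22 of 35 passed, against 44.8% of all genes. The median log2 difference was 1.02 against 0.03 for all genes tested, and the median absolute difference 1.51 against 0.88. These counts and medians include FOS, EGR1, EGR2, EGR3, ARC, DUSP6, SPRY4, ETV1 and ETV4, which were too low to test within C4-2. They entered this contrast through their 22Rv-1 reads, so they could hardly come out lower in 22Rv-1. The control constructs also differ (a lentiviral vector and a short hairpin), and line and construct cannot be told apart.

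ETV factors and SPRY4 showed the widest gaps. ETV5 (chr3:186046314-186110318) read 1.46, 0.516 and 2.33 CPM in C4-2 control and 87.3, 85.9 and 84.8 in 22Rv-1 shcontrol (log2 5.91 ± 0.152 SE, 60.2-fold, adjusted p = 2.12e-29). ETV1 (chr7:13891229-13991425) had 0, 5 and 2 reads in the C4-2 control libraries against 643, 548 and 793 (44.1, 41 and 53 CPM), a ratio of 265 with a 95% counting interval of 128 to 661. ETV4 (chr17:43527844-43579620) read 0.583, 0.369 and 0.311 CPM against 26.7, 23.9 and 21 (log2 5.79 ± 0.244, 55.3-fold, adjusted p = 1.69e-22). In the C4-2 control libraries ETV1 and ETV4 were thus at the level of a few reads and ETV5 had 7 to 30, while no 22Rv-1 shcontrol library had fewer than 315 reads for any of them.

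Inhibitors that are usually induced beside them parted in the same direction, with exceptions. SPRY4 (chr5:142310427-142326455), which acts upstream of RAF, had 0, 1 and 0 reads in C4-2 control and 345, 303 and 340 in 22Rv-1 shcontrol (23.6, 22.7 and 22.7 CPM), a ratio of 924 with a counting interval of 166 to 36600 (adjusted p = 1.58e-23). DUSP6 (chr12:89347235-89352501), a cytoplasmic phosphatase for ERK, read 0.947, 0.221 and 0.777 CPM against 10.3, 11.1 and 9.75 (log2 3.99 ± 0.27, 15.9-fold, adjusted p = 3.75e-16). SPRY2 read 3.28, 5.16 and 6.84 CPM against 22.7, 17.5 and 18.1, and SPRY1 4.81, 6.34 and 6.29 against 11.9, 9.12 and 9.29 (3.83-fold and 1.74-fold, adjusted p = 5.88e-13 and 2.44e-05). No library of one line overlapped the other for these 4 genes. SPRED1 and SPRED2, which recruit neurofibromin to RAS, were also higher: SPRED1 went from 15.8, 15.3 and 15.6 to 41.3, 43.3 and 44.4 CPM and SPRED2 from 48.4, 46.4 and 53.9 to 86.6, 88.2 and 87.9 (2.76-fold and 1.77-fold). SPRED3 was the exception of its family, at 17.7, 18.7 and 15.5 CPM in C4-2 and 3.7, 1.5 and 3.54 in 22Rv-1 (5.86-fold lower, adjusted p = 8.23e-15).

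Among the other phosphatases, DUSP4 and DUSP5, which act on ERK in the nucleus, went the other way. DUSP4 read 40.5, 46.5 and 50 CPM in C4-2 control and 6.1, 6.88 and 4.28 in 22Rv-1 shcontrol (log2 -2.99 ± 0.12, 7.97-fold lower, adjusted p = 3.15e-23). DUSP5 read 4.08, 4.5 and 3.96 CPM against 1.3, 0.598 and 1.4 (3.73-fold lower, adjusted p = 9.2e-06), and DUSP2 read 8.37, 10.6 and 9.71 against 7.81, 7.55 and 7.75, which did not pass (adjusted p = 0.0596). DUSP7 (24.2, 23.2 and 25.9 against 40.8, 45.8 and 35.8 CPM), DUSP8 (32.6, 33 and 37.1 against 58.9, 54.9 and 55.5) and DUSP10 (12.1, 10.5 and 13 against 34.3, 32.5 and 34.8) were higher in 22Rv-1, 1.67-fold, 1.65-fold and 2.86-fold. DUSP7 and DUSP6 act on ERK in the cytoplasm, and DUSP8 and DUSP10 on JNK and p38.

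The immediate early factors themselves were mostly higher in 22Rv-1. EGR1 (chr5:138465479-138469303), a zinc finger factor, read 0.51, 0.737 and 1.32 CPM in C4-2 control and 38.2, 44.9 and 41.4 in 22Rv-1 shcontrol (log2 5.6 ± 0.174, 48.5-fold, adjusted p = 9.52e-27). EGR3 went from 0.51, 0.147 and 0.311 to 6.79, 6.81 and 6.75 CPM (20.4-fold, adjusted p = 4.28e-14), and FOS (chr14:75278826-75282230) from 0.583, 1.47 and 0.466 to 12.2, 11.1 and 12 (13.8-fold, adjusted p = 1.03e-15). Both groups were far apart for all 3. EGR2 had 6, 0 and 0 reads against 12, 4 and 4 and did not pass (adjusted p = 0.0881), although it passed without C4-2 control replicate 1, the library with the 6 reads (adjusted p = 0.00253). EGR4 had no read in C4-2 control and 8, 11 and 6 in 22Rv-1 shcontrol, at least 7.8-fold higher against a floor of 3 counts over the group, and was not tested. ARC, a neuronal immediate early gene, read 0.146, 0.221 and 0.233 against 0.822, 1.05 and 0.668 CPM (adjusted p = 0.00408). FOSL1 had 12 and 14 reads over the groups, a ratio of 1.09 with an interval of 0.469 to 2.58.

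AP-1 genes split. JUN read 64.4, 73.5 and 74.1 CPM in C4-2 control and 152, 148 and 149 in 22Rv-1 shcontrol, and JUNB 22.2, 18.5 and 27.1 against 44.3, 44.9 and 46.1 (2.12-fold and 2-fold higher, adjusted p = 4.98e-18 and 4.92e-12). JUND, whose product is the most constant of the JUN proteins in many cells, read 145, 160 and 169 against 99.9, 97.8 and 100.3 CPM (1.59-fold lower, adjusted p = 6.82e-12). FOSL2, a FOS relative without a strong activation domain, read 67.9, 74.5 and 75.8 against 16.8, 17.5 and 16.2 CPM (4.32-fold lower, adjusted p = 3.35e-23), and FOSB 2.26, 3.39 and 2.25 against 3.15, 3.22 and 2.61 (adjusted p = 0.558). Per gene length the order within the family turned round: FOSL2 had 9.33 ± 0.353 FPKM and FOS 0.243 ± 0.161 in C4-2 control, and FOSL2 had 2.4 ± 0.085 and FOS 3.76 ± 0.178 in 22Rv-1 shcontrol.

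The remaining factors were higher in 22Rv-1 except for IER2 and PHLDA1. KLF4 read 17.8, 19.7 and 19.3 against 44.9, 43.1 and 44.3 CPM, KLF10 11.9, 12.1 and 12.2 against 32.6, 30.1 and 33.4, and KLF6 9.03, 9.07 and 11 against 14.3, 16.5 and 15.9 (2.33-fold, 2.66-fold and 1.6-fold). KLF2 read 0.801, 0.958 and 2.1 against 2.47, 2.77 and 2.54 CPM (adjusted p = 0.00585), a call lost without C4-2 control replicate 1 (adjusted p = 0.0537). IER5 read 12.2, 12.9 and 13.5 against 26, 23.8 and 27.1 CPM and SRF 48.3, 51.3 and 51.1 against 80.5, 85.3 and 73.2 (1.99-fold and 1.59-fold, adjusted p = 2.02e-10 and 3.64e-10). IER2 was level, at 17.8, 18.3 and 20 against 18.5, 19.7 and 17.8 CPM (log2 0 ± 0.119, adjusted p = 0.998). EPHA2, a receptor tyrosine kinase induced by ERK, read 2.4, 4.57 and 2.8 against 23, 25.3 and 17.7 CPM (6.71-fold, adjusted p = 2.71e-17), and PHLDA1, an ERK-induced gene with a pleckstrin-homology-like domain, 8.52, 8.55 and 8.55 against 2.33, 3.74 and 2.74 (2.92-fold lower, adjusted p = 1.44e-08). The 2 ERK targets outside the named families therefore went in opposite directions.

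**Figure D2:**
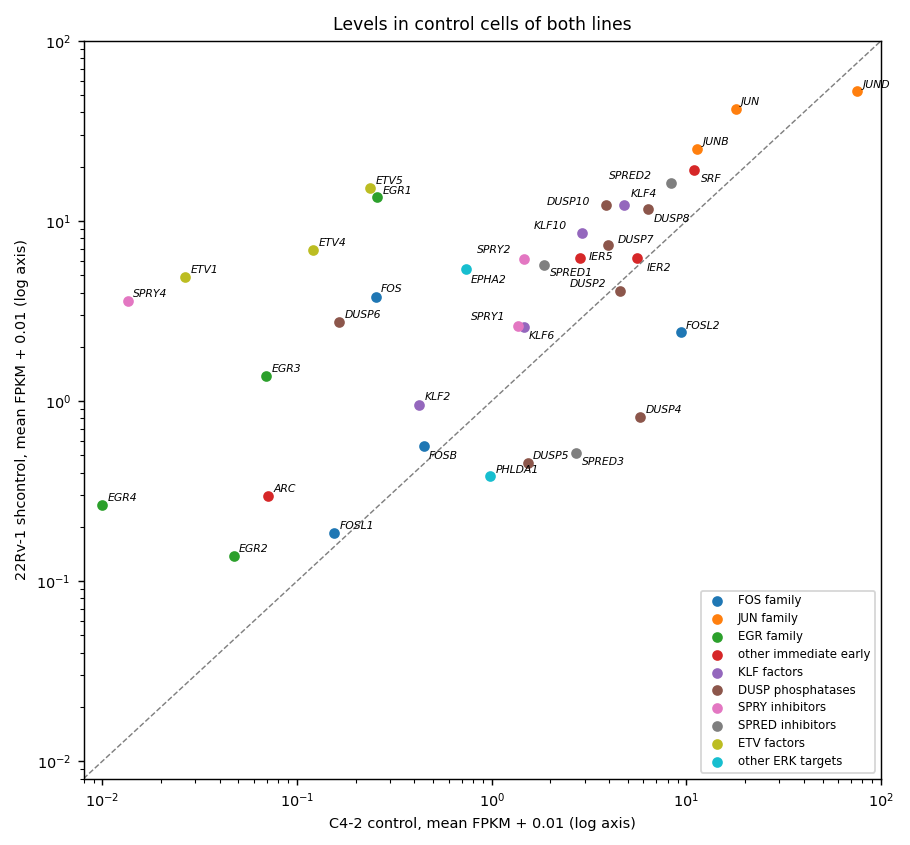
Mean FPKM (+ 0.01, log axes) of the 37 genes in C4-2 control (x) and 22Rv-1 shcontrol (y), 1 point per gene coloured by family, with the dashed line marking equal levels. ETV1, ETV4, ETV5, SPRY4, EGR1, EGR3, FOS and DUSP6 lie far above the line, and DUSP4, SPRED3, FOSL2, DUSP5 and PHLDA1 lie below it.

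The C4-2 comparison asked what follows when ARv7 is expressed. The 11 genes under 1 CPM were too low to test, so calls could fall only among the other 26. KLF6 rose 2.38-fold and JUN 1.44-fold, while IER5 fell 2.23-fold and JUND 1.95-fold. Of 26 genes tested, 6 rose, 6 fell and 14 did not pass, against 59.1% of all genes tested that passed (29.6% higher, 29.5% lower). The median log2 change was 0 against 0.01 for all genes, and 2 of the 26 passed with at least a 2-fold change (KLF6 and IER5), against 13.2%. With total counts and no scaling factor the split was 9 higher and 3 lower, and with limma on log2(FPKM + 1) 8 higher and 4 lower; over all genes the share of calls that were higher went from 50% to 67.2% and 65.6%. Without C4-2 control replicate 3, the library that stood apart, 8 rose and 6 fell.

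KLF6 (chr10:3775996-3785281), a zinc finger factor lost or mis-spliced in some prostate tumours, read 9.03, 9.07 and 11 CPM in control and 20.1, 26.5 and 23.3 with ARv7 (log2 1.25 ± 0.134, adjusted p = 1.54e-07). JUN (chr1:58776845-58784048) went from 64.4, 73.5 and 74.1 to 97.2, 102 and 109 CPM (log2 0.53 ± 0.073, adjusted p = 4.33e-06). KLF10, which is induced by TGF-beta as well as by growth factors, went from 11.9, 12.1 and 12.2 to 16.7, 18.3 and 17.4 CPM (log2 0.52 ± 0.119, adjusted p = 8.2e-04). Every ARv7 library was above every control library for these 3 factors. PHLDA1 rose from 8.52, 8.55 and 8.55 to 14.2, 12.7 and 15.2 CPM (1.63-fold, adjusted p = 1.97e-04), and SPRED1 from 15.8, 15.3 and 15.6 to 17.3, 23.4 and 22.9 (1.35-fold, adjusted p = 0.00587). DUSP4 was the smallest call, from 40.5, 46.5 and 50 to 52.8, 51.3 and 54.6 CPM (1.15-fold, adjusted p = 0.0436). Leaving out any single library other than control replicate 3 ended it (adjusted p = 0.0656 to 0.222), as did DESeq2 (adjusted p = 0.0716).

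Among the genes that fell, IER5 (chr1:181088700-181092900), an immediate early gene that also assists the heat shock factor HSF1, read 12.2, 12.9 and 13.5 CPM in control and 5.29, 6.06 and 6.16 with ARv7 (log2 -1.16 ± 0.15, adjusted p = 1.88e-06). JUND (chr19:18279694-18281622) fell from 145, 160 and 169 to 85.2, 80 and 78.8 CPM (log2 -0.97 ± 0.068, adjusted p = 3.1e-10). JUN and JUND thus moved in opposite directions in the same dishes. DUSP10 (chr1:221701424-221742089), a JNK and p38 phosphatase, fell from 12.1, 10.5 and 13 to 8.95, 8.27 and 6.72 CPM (1.49-fold, adjusted p = 0.00313). IER2 fell from 17.8, 18.3 and 20 to 14.4, 15.8 and 10.8 CPM (adjusted p = 0.00633), a call lost without ARv7 replicate 3, its lowest library (adjusted p = 0.0528), and with no scaling factor (adjusted p = 0.0558). FOSB went from 2.26, 3.39 and 2.25 to 1.49, 1.14 and 1.76 CPM (1.82-fold lower, adjusted p = 0.0253), and the call was lost without control replicate 2, ARv7 replicate 1 or ARv7 replicate 2 (adjusted p = 0.15, 0.0594 and 0.107) and with no scaling factor (adjusted p = 0.0604). SPRED3 went from 17.7, 18.7 and 15.5 to 14.1, 12.1 and 14.6 CPM (1.28-fold lower, adjusted p = 0.0186). That call was lost without control replicate 2 or ARv7 replicate 2 (adjusted p = 0.0799 and 0.102), in the fit of all 12 libraries (0.0565), with no scaling factor (0.161) and with limma (0.169).

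The other 14 tested genes did not pass. EPHA2 came nearest, from 2.4, 4.57 and 2.8 to 4.75, 5.27 and 4.72 CPM (log2 0.58 ± 0.248, adjusted p = 0.0506). It passed without control replicate 2 (log2 0.9, adjusted p = 0.00781), in the fit of all 12 libraries (0.016), with no filter (0.0326) and with no scaling factor (0.0187). Next came DUSP7, which read 28.5, 27.9 and 29.7 CPM with ARv7 (log2 0.22 ± 0.095, adjusted p = 0.0526) and passed without control replicate 3 (0.0253), at a mean of at least 5 CPM (0.0351), in the fit of all 12 libraries (0.0383), with no scaling factor (0.00267) and with limma (0.00318). SRF read 45, 40.3 and 48.9 CPM (log2 -0.18 ± 0.083, adjusted p = 0.0734) and passed without control replicate 1 or ARv7 replicate 3 (0.0473 and 0.0345). For the others the adjusted p was 0.277 or more. ETV5 read 1.9, 2.42 and 1.84 CPM with ARv7 (log2 0.52 ± 0.397, adjusted p = 0.277; 1.03 without control replicate 3, adjusted p = 0.038), and KLF2 1.63, 1.5 and 2.24 (log2 0.47 ± 0.386, adjusted p = 0.314). FOSL2 read 74, 75.8 and 71.2 CPM, JUNB 23.6, 22.1 and 24.1, KLF4 16.8, 20.5 and 19.8, DUSP2 7.53, 10.9 and 10.1, and DUSP5 2.03, 4.56 and 4.8, with log2 changes between -0.16 and 0.03. DUSP8 read 33.2, 32.8 and 31.3 CPM, SPRY1 5.76, 5.2 and 5.44, SPRY2 5.9, 4.63 and 4.48, and SPRED2 50.2, 53 and 55.3, with log2 changes between -0.1 and 0.08. Of these, SPRED2 passed as higher with no scaling factor and with limma (adjusted p = 0.018 and 0.0211). SPRY1, SPRY2 and SPRED2, which act on RAS and RAF, were thus among the genes without a call in the TMM-scaled fit.

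The 11 genes under 1 CPM were not tested in C4-2. In the ARv7 libraries they had 0 to 12 reads each, and the highest single level in either group was 1.47 CPM for FOS in control replicate 2. FOS had 34 reads over the control libraries and 16 with ARv7, a ratio of 0.458 with a counting interval of 0.236 to 0.852 that covers counting error only. EGR1 had 7, 10 and 17 reads in control and 12, 7 and 7 with ARv7, DUSP6 13, 3 and 10 against 6, 6 and 4, and SPRY4 0, 1 and 0 against 0, 5 and 1. With so few reads, changes as small as those of most members above were not detectable at this depth.

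**Figure D3:**
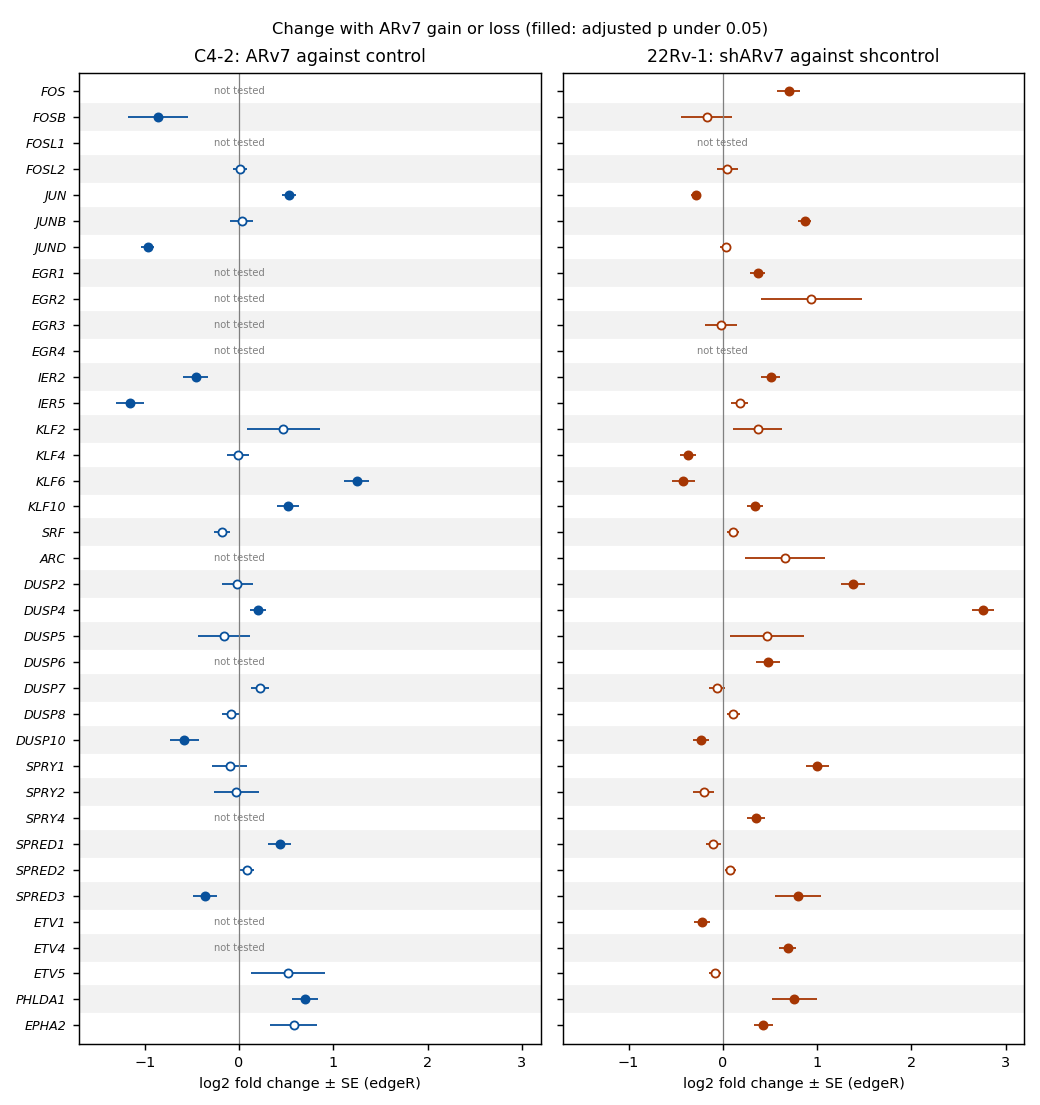
Log2 fold change ± SE (edgeR) of each gene with ARv7 in C4-2 (left) and with depletion of ARv7 in 22Rv-1 (right); filled points passed an adjusted p of 0.05, and genes too low to test are marked. KLF6 is farthest to the right and IER5 farthest to the left in C4-2, and DUSP4 at 2.76 stands far to the right in 22Rv-1.

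The 22Rv-1 comparison asked the reverse question, what follows when ARv7 is depleted. The largest rises that passed were in single members of the inhibitor families: DUSP4 rose 6.78-fold, DUSP2 2.6-fold and SPRY1 2-fold. JUNB followed at 1.83-fold, SPRED3 at 1.74-fold, PHLDA1 at 1.69-fold, FOS at 1.63-fold and ETV4 at 1.61-fold. KLF6, KLF4, JUN, DUSP10 and ETV1 were lower, by at most 1.33-fold. Of 35 genes tested, 14 rose, 5 fell and 16 did not pass, against 48% of all genes tested that passed (23.9% higher, 24.1% lower). The median log2 change was 0.34 against 0.01 for all genes, and 2 of 35 (DUSP4 and DUSP2) passed with at least a 2-fold change, against 7.65%. The median was 0.182 without shcontrol replicate 2, 0.189 without shARv7 replicate 3, 0.129 among genes of a mean of at least 5 CPM and 0.152 with limma on log2(FPKM + 1). With no scaling factor 16 were higher and 3 lower.

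DUSP4, a nuclear phosphatase for ERK that ERK itself induces, read 6.1, 6.88 and 4.28 CPM in shcontrol and 39.2, 36.4 and 40.5 in shARv7 (log2 2.76 ± 0.12, adjusted p = 2.65e-33). Depleted 22Rv-1 cells thereby came near the C4-2 control level of 45.7 ± 4.79 CPM. DUSP2 (chr2:96143169-96145440), another nuclear phosphatase, went from 7.81, 7.55 and 7.75 to 18.3, 21.3 and 20.3 CPM (log2 1.38 ± 0.127, adjusted p = 1.65e-15). DUSP6 went from 10.3, 11.1 and 9.75 to 16.7, 12.1 and 14.6 CPM (1.39-fold, adjusted p = 0.00168). All 3 had every depleted library above every control library. DUSP10 was the phosphatase that fell, from 34.3, 32.5 and 34.8 to 29.8, 28.9 and 28 CPM (1.17-fold, adjusted p = 0.0265). Its call was lost without shcontrol replicate 1 or 3 or shARv7 replicate 2 or 3 (adjusted p = 0.0535 to 0.0871), in the fit of all 12 libraries (0.0614) and with no scaling factor (0.0841). DUSP5 read 1.74, 0.734 and 2.1 CPM in shARv7 (log2 0.47 ± 0.395, adjusted p = 0.342), DUSP7 40.7, 37.9 and 38.6 (log2 -0.06, adjusted p = 0.605) and DUSP8 57.4, 65.5 and 59 (log2 0.11, adjusted p = 0.213).

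Of the SPRY and SPRED genes, SPRY1 (chr4:123396795-123403760) rose from 11.9, 9.12 and 9.29 to 21.3, 18.4 and 20.8 CPM (log2 1 ± 0.122, adjusted p = 9.26e-11). SPRY4 rose from 23.6, 22.7 and 22.7 to 26.1, 28.7 and 32.6 CPM (1.27-fold, adjusted p = 0.00172), a call lost without shARv7 replicate 3, its highest library (adjusted p = 0.0509). SPRED3 went from 3.7, 1.5 and 3.54 to 4.28, 5.43 and 5.64 CPM (1.74-fold, adjusted p = 0.00407), lost without shcontrol replicate 2, its lowest (adjusted p = 0.0907). The family members did not all rise. SPRY2 read 16.8, 16.1 and 17.6 CPM in shARv7 (log2 -0.2 ± 0.111, adjusted p = 0.13), SPRED1 44, 38.4 and 38 (log2 -0.1, adjusted p = 0.336) and SPRED2 87.5, 98.4 and 90.7 (log2 0.08, adjusted p = 0.3).

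AP-1 and EGR genes were mixed as well. JUNB (chr19:12791486-12793315) rose from 44.3, 44.9 and 46.1 to 83.6, 77.7 and 85.6 CPM (log2 0.87 ± 0.068, adjusted p = 9.14e-19), and FOS from 12.2, 11.1 and 12 to 21.4, 14.8 and 21.1 (log2 0.7 ± 0.123, adjusted p = 1.55e-06). JUN fell from 152, 148 and 149 to 127, 122 and 121 CPM (log2 -0.28 ± 0.054, adjusted p = 1.24e-05). JUNB thus rose and JUN fell with no overlap between the groups, while JUND, at 109, 100.4 and 94 CPM in shARv7, lay over its control level (log2 0.03 ± 0.06, adjusted p = 0.697). EGR1 rose from 38.2, 44.9 and 41.4 to 51, 53.6 and 55.7 CPM (1.29-fold, adjusted p = 3.38e-05), but EGR3 read 6.24, 6.9 and 6.86 CPM (log2 -0.02 ± 0.173, adjusted p = 0.938). FOSB (2.76, 3.16 and 2.04 CPM, log2 -0.17) and FOSL2 (18.1, 15.6 and 18.3 CPM, log2 0.05) did not pass. EGR2 had 11, 7 and 20 reads in shARv7 and ARC 23, 9 and 24, with adjusted p = 0.14 and 0.201, and EGR2 passed without shcontrol replicate 1 (adjusted p = 0.0418). FOSL1 had 6, 9 and 14 reads and EGR4 0, 9 and 4, and neither was tested.

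IER2 rose from 18.5, 19.7 and 17.8 to 27.2, 23.9 and 28.7 CPM (1.43-fold, adjusted p = 1.28e-05), and KLF10 from 32.6, 30.1 and 33.4 to 42.3, 38.8 and 40.7 (1.27-fold, adjusted p = 3.59e-04). KLF4, a factor of epithelial differentiation, fell from 44.9, 43.1 and 44.3 to 32.1, 33.2 and 36.5 CPM (1.29-fold, adjusted p = 8.13e-05), and KLF6 from 14.3, 16.5 and 15.9 to 10.7, 11.7 and 12.4 (1.33-fold, adjusted p = 0.00384). The KLF genes therefore split 1 higher to 2 lower. IER5 read 30.6, 27.9 and 28.8 CPM in shARv7 (log2 0.18 ± 0.092, adjusted p = 0.0919), KLF2 3.27, 3.38 and 3.4 (log2 0.37, adjusted p = 0.238) and SRF 89.7, 85.5 and 82.2 (log2 0.11, adjusted p = 0.144). The ETV genes also split. ETV4 rose from 26.7, 23.9 and 21 to 38.3, 35.7 and 41.1 CPM (log2 0.69 ± 0.091, adjusted p = 1.06e-09), ETV5 read 79.7, 80.5 and 83.7 (log2 -0.08, adjusted p = 0.311), and ETV1 went from 44.1, 41 and 53 to 36.2, 39.4 and 42.4, with overlapping groups (1.17-fold lower, adjusted p = 0.0202). The ETV1 call was lost without shcontrol replicate 3 or shARv7 replicate 1 (adjusted p = 0.267 and 0.125) and under 4 other settings (adjusted p = 0.0575 with DESeq2, 0.0715 with no scaling factor, 0.107 in the fit of all 12 libraries and 0.209 with limma). EPHA2 rose from 23, 25.3 and 17.7 to 31.4, 28.8 and 28.4 CPM (1.35-fold, adjusted p = 1.82e-04), and PHLDA1 from 2.33, 3.74 and 2.74 to 3.85, 6.68 and 4.28 (1.69-fold, adjusted p = 0.00692), lost without shARv7 replicate 2, its highest library (adjusted p = 0.158).

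Of the 26 genes tested in both lines, 8 passed in both. JUN and KLF6 rose with ARv7 in C4-2 and fell on its depletion in 22Rv-1, and IER2 and SPRED3 did the reverse, so that these 4 moved with opposite signs as ARv7 was raised and lowered. Opposite calls were made for 16.5% of 12080 genes tested in both lines. KLF10, DUSP4 and PHLDA1 rose and DUSP10 fell in both comparisons, whichever way ARv7 was changed, against 14.1% of genes called in the same direction. Among these 8, the calls of IER2, SPRED3 and DUSP4 in C4-2 were lost under some alternatives given above. So were those of SPRED3, DUSP10 and PHLDA1 in 22Rv-1. The other 18 passed in 1 line or in neither: SPRED1 rose and FOSB, JUND and IER5 fell in C4-2 alone, JUNB, DUSP2, SPRY1 and EPHA2 rose and KLF4 fell in 22Rv-1 alone, and 9 passed in neither. EPHA2 in C4-2 missed the threshold narrowly (adjusted p = 0.0506) and passed under the alternatives given above. Passing in 1 line alone does not show a difference between the lines, which was tested separately.

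That test set the effect of more ARv7 in C4-2 (ARv7 minus control) against the effect of more ARv7 in 22Rv-1 (shcontrol minus shARv7) in 1 fit of all 12 libraries. Of 35 genes tested, 15 differed, 10 with the more positive effect in C4-2 and 5 with the more negative, against 50.7% of all genes tested (27.4% and 23.3%). The 35 include FOS, EGR1, EGR2, EGR3, ARC, DUSP6, SPRY4, ETV1 and ETV4, which were too low to test within C4-2. Their standard errors ran from 0.369 to 1.564 and none passed, so all 15 were among the 26 genes tested in both lines. DUSP4 differed most (log2 2.97 ± 0.154, adjusted p = 1.98e-18), followed in size by PHLDA1 (1.47 ± 0.277, adjusted p = 3.14e-05), DUSP2 (1.36 ± 0.207, adjusted p = 9.34e-07), FOSB (-1.03 ± 0.424, adjusted p = 0.0417) and EPHA2 (1.02 ± 0.245, adjusted p = 6.62e-04). The FOSB call was lost without any 1 of C4-2 control replicate 2, C4-2 ARv7 replicates 1 and 2, shcontrol replicates 1 and 2 and shARv7 replicates 1 and 3 (adjusted p = 0.0538 to 0.145). JUND (-0.93 ± 0.092, adjusted p = 1.16e-10) and IER5 (-0.96 ± 0.167, adjusted p = 8.58e-06) fell with ARv7 in C4-2 but had no call in 22Rv-1. Among the 4 genes with opposite calls, JUN and KLF6 still differed in size (0.26 ± 0.089 and 0.84 ± 0.184, adjusted p = 0.015 and 2.2e-04), while IER2 and SPRED3 did not pass (0.06 ± 0.169 and 0.45 ± 0.273, adjusted p = 0.785 and 0.175). The JUN call was lost without C4-2 control replicate 1 or C4-2 ARv7 replicate 3 (adjusted p = 0.061 and 0.0646). With no scaling factor the split was 12 to 3 and with limma 16 to 3, while over all genes the more positive share of calls went from 54% to 72% and 68.3%. Without C4-2 control replicate 3 it was 13 to 5.

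**Figure D4:**
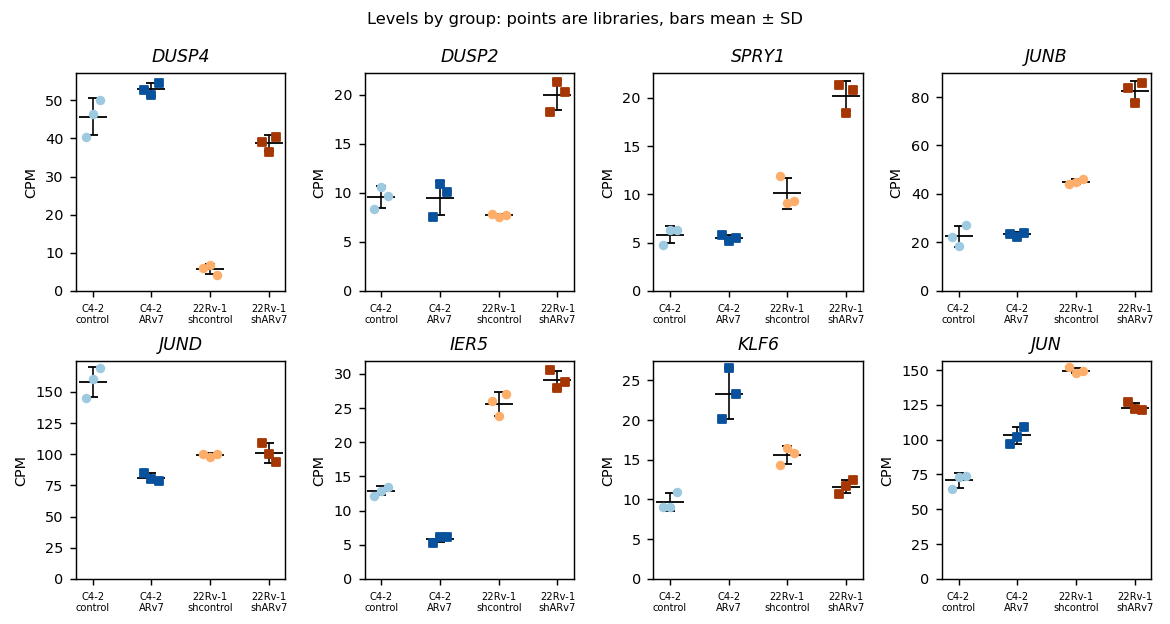
CPM of 8 genes in every library (points) with the group mean and SD (bars), chosen after their values were seen, each axis from 0. DUSP4, DUSP2, SPRY1 and JUNB are higher in 22Rv-1 shARv7 than in shcontrol, JUND and IER5 are lower in C4-2 ARv7 than in control, and KLF6 and JUN move in opposite directions in the 2 lines.

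The rest of the pathway was read from lists of genes that act around the 37. Their counts of calls are to be read against the 59.1% of all genes tested that passed in C4-2 and the 48% in 22Rv-1. Of the ERK cascade from GRB2 to the RSK kinases, 4 rose and 13 fell of 23 tested in C4-2 with ARv7, where the exchange factor SOS1 fell 1.62-fold and the adaptor GRB2 1.29-fold, and 5 rose and 7 fell of 23 in depleted 22Rv-1, where NF1, which switches RAS off, fell 1.45-fold. Growth factor receptors had 4 higher and 1 lower of 10 in C4-2 and 6 higher and 2 lower of 10 in 22Rv-1; EGFR fell in both (337 to 169 CPM and 1892 to 1309 CPM), and IGF1R rose from 468 to 631 CPM with ARv7 and fell from 176 to 53.6 CPM on depletion. Their ligands had 0 higher and 4 lower of 5, and 4 higher and 1 lower of 7; TGFA, an EGFR ligand, went from 20.7 to 10.3 CPM and from 1.4 to 7.6 CPM. Beside the DUSP genes above, the 4 other MAPK phosphatases had 1 higher and 2 lower in C4-2 and 2 higher and 0 lower in 22Rv-1. DUSP1, the classical stress-induced member, fell 3.07-fold with ARv7 (89.4 to 29.3 CPM, adjusted p = 3.07e-12) and rose 1.75-fold on depletion (17.2 to 30 CPM, adjusted p = 1.32e-10). Of 20 and 23 other immediate early genes, 6 rose and 6 fell in C4-2, with KLF5 down 6.65-fold and ATF3 up 1.9-fold, and 14 rose and 4 fell in 22Rv-1, with ID3 up 2.09-fold, ID1 up 2.07-fold and ATF3 down 1.25-fold. SRF cofactors counted 3 higher and 1 lower of 5 in C4-2 and 1 higher and 4 lower of 5 in 22Rv-1, and the cytoskeletal targets of SRF 4 higher and 0 lower of 7, and 4 higher and 3 lower of 9. TPM1 rose 1.54-fold and FLNA 1.54-fold with ARv7, and on depletion they fell 1.47-fold and 1.3-fold. TAGLN and ACTG1 instead rose on depletion, 1.64-fold and 1.2-fold, and ACTG1 rose in C4-2 as well (log2 0.35). SRF itself passed in neither line. Other ERK outputs had 2 higher and 2 lower of 7, with CCND1, which encodes cyclin D1, up 1.76-fold in C4-2, and 2 higher and 1 lower of 8 in 22Rv-1, with VGF up 1.75-fold. The JNK and p38 cascade had 2 higher and 9 lower of 16 in C4-2, with MAPKAPK2 down 2.88-fold, and 2 higher and 6 lower of 16 in 22Rv-1, with MAP2K6 down 3.16-fold.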

How the data were processed

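Per the labels, RNA of 12 dishes was sequenced on an Illumina NovaSeq, and per the submitters' processing notes reads were trimmed with cutadapt 2.7. No source used here gives the aligner, the counter or the strand, so overlapping and antisense genes could not be separated. The authors deposited raw read counts and FPKM per gene. The labels name hg18, but the table's coordinates are those of GRCh38: all 37 members lay within 10000 bp of their GENCODE 29 positions. One line without a gene identifier was left out.

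Counts were fitted with edgeR 4.0.16 (filterByExpr, TMM, quasi-likelihood F-test) within each line, and in 1 fit of 12 libraries for the difference between lines and for the control lines. Biological coefficients of variation were 0.0655 (C4-2) and 0.0516 (22Rv-1). Ratios for low counts use TMM-scaled totals with exact 95% intervals. Intervals and floors cover counting error only. Alternatives were DESeq2 1.42.0, its size factors, no scaling, no filter, a mean of 5 CPM, a replicate block, limma 3.58.1 on the deposited log2(FPKM + 1) at a mean FPKM of at least 1, 1 fit of all libraries, and leaving out each library. The fits were run on simulated data with the same spread for every gene and no changed gene at low counts. That run does not speak for the members with few reads.

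Members and lists were chosen with earlier results of these data known. Every member is named; members averaging at least 1 CPM in a line are given for every library. From each pathway list, the named genes come from up to 2 per direction and line with the smallest adjusted p. Some genes that this rule takes are not reported here.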

Additional observations from a re-analysis of the deposited data

Results flagged for a closer look

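The effect of more ARv7 differed between the lines by the test of the difference itself for 15 of the 35 genes tested, where 50.7% of all genes tested passed. All 15 were among the 26 genes tested in both lines, and the others were too low to test within C4-2 or did not pass. The values are log2 differences, C4-2 minus 22Rv-1, with edgeR adjusted p-values. Phosphatases and inhibitors were among the genes with the more positive effect in C4-2: DUSP4 2.97 (1.98e-18), DUSP2 1.36 (9.34e-07), SPRY1 0.91 (8.78e-04) and SPRED1 0.35 (0.0458). So were the AP-1 genes JUNB 0.91 (4.39e-07) and JUN 0.26 (0.015), the KLF factors KLF10 0.88 (1.84e-06) and KLF6 0.84 (2.2e-04), and the ERK targets PHLDA1 1.47 (3.14e-05) and EPHA2 1.02 (6.62e-04). The more negative effect in C4-2 was found for FOSB -1.03 (0.0417), IER5 -0.96 (8.58e-06), JUND -0.93 (1.16e-10), DUSP10 -0.79 (1.09e-04) and KLF4 -0.37 (0.0204). DUSP4, KLF10 and PHLDA1 rose and DUSP10 fell in both within-line comparisons, so each difference adds up 2 changes of 1 sign under opposite treatments. For DUSP4 the C4-2 part was small (log2 0.2). That call, and those of DUSP10 and PHLDA1 in 22Rv-1, were lost when some single libraries were left out. Markers of dividing cells rose with ARv7 in C4-2 and their sum was lower after depletion in 22Rv-1, and their part in these differences was not tested. Leaving out 1 library ended the call for 4 of the 15. For FOSB these were C4-2 control replicate 2, C4-2 ARv7 replicates 1 and 2, 22Rv-1 shcontrol replicates 1 and 2 and 22Rv-1 shARv7 replicates 1 and 3 (adjusted p = 0.0538 to 0.145). For SPRED1 they were C4-2 control replicate 2, C4-2 ARv7 replicates 2 and 3, 22Rv-1 shcontrol replicates 1 and 2 and 22Rv-1 shARv7 replicate 1 (0.0655 to 0.157), for KLF4 C4-2 ARv7 replicate 1 and 22Rv-1 shARv7 replicate 1 (0.0887 and 0.0556), and for JUN C4-2 control replicate 1 and C4-2 ARv7 replicate 3 (0.061 and 0.0646).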

How the results depend on the processing

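The total counts of genes and of members past the threshold stayed within 1.5 times their value under each alternative run. Counts in 1 direction moved more. Genes called lower went from 3776 to 2237 with limma in C4-2, and for the difference from 3314 to 2069 with no scaling factor and 2097 with limma. Members called lower went from 6 to 3 in C4-2 with no scaling factor. They went from 5 to 3 in 22Rv-1 with no scaling factor, in the fit of all 12 libraries and without shcontrol replicate 3, and from 5 to 3 for the difference with no scaling factor, with limma and without C4-2 ARv7 replicate 1 or 22Rv-1 shARv7 replicate 1. Limma took the higher members of the difference from 10 to 16. Without 1 library the genes called were 6673 to 7870 in C4-2, 5793 to 6532 in 22Rv-1, 6752 to 7308 for the difference and 11640 to 11965 between control lines, and the members called 9 to 14, 17 to 19, 12 to 18 and 31 to 32. Members called in both lines numbered 6 to 9. Of 12, 19, 15 and 31 members called, 8, 14, 11 and 30 kept the call in each alternative that tested them. Over 131 member results and 2137 alternatives, 2044 kept direction and side of the threshold, 57 lost the call, 33 gained it and 3 reversed. The 3 were differences between lines under limma on log2(FPKM + 1): FOS 0.46 (adjusted p = 0.025, against -0.41), EGR1 0.34 (0.0186, against -0.06) and DUSP6 0.33 (0.0384, against -0.25). All 3 are under 1 CPM in C4-2, where a pseudocount of 1 FPKM holds the change near 0. The SPRED1 difference also lost its call with DESeq2 (0.0995), the FOSB difference with no scaling factor (0.0943), and the KLF4 difference with no scaling factor (0.254) and with limma (0.119). SPRY4 gained one without C4-2 control replicate 2 or C4-2 ARv7 replicate 1 (0.044 and 0.0251).

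Replicate numbers share only a number: same-numbered libraries of a line had correlated deviations of -0.09 to 0.01, and no library correlated best with its own number. With the replicate block 7310, 6203, 6865 and 11753 genes were called in C4-2, in 22Rv-1, for the difference and between control lines, with 13, 19, 13 and 31 members and 9 members in both lines, and the differences of FOSB and SPRED1 had adjusted p = 0.0577 and 0.0615 and EPHA2 in C4-2 had 0.037. Depth limits the 11 members under 1 CPM in C4-2, where 3 counts equal 0.204 to 0.244 CPM per library.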

Other observations

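Outside the 37 genes, single genes of the pathway also stood apart between the control lines, where 83.4% of all genes tested passed. The pathway lists varied in median absolute log2 difference, against 0.88 for all genes. It was 0.65 for the ERK cascade (10 higher and 10 lower of 23) and 0.8 for the JNK and p38 cascade. Cytoskeletal targets of SRF had 0.31, other MAPK phosphatases 0.7, other immediate early genes 0.89 and SRF cofactors 0.94. Growth factor receptors had 2.03, their ligands 3.35 and other ERK outputs 3.95. EGFR averaged 337 ± 12.9 CPM in C4-2 control and 1892 ± 30.3 in 22Rv-1 shcontrol (SD, n = 3 in each mean here; log2 2.49, edgeR adjusted p = 3.27e-32), and MET, the receptor of hepatocyte growth factor, 1.12 ± 0.0518 and 9.74 ± 1.89 (log2 3.11, adjusted p = 4.04e-15). HGF, which encodes that factor, had no read in C4-2 control and averaged 153 ± 9.07 CPM in 22Rv-1 shcontrol. CCND1 averaged 152 ± 7.04 and 2348 ± 17.9 CPM (log2 3.95, adjusted p = 1.61e-37), and VGF, a neuropeptide precursor induced by ERK, 1.94 ± 0.878 and 196 ± 7.1 (log2 6.65, adjusted p = 4.37e-33). IGF1R was lower in 22Rv-1 shcontrol, at 176 ± 3.53 against 468 ± 16.5 CPM (log2 -1.41, adjusted p = 7.82e-24), as were DUSP1, at 17.2 ± 1.96 against 89.4 ± 6.98 (log2 -2.38, adjusted p = 1.34e-23), and TGFA, at 1.4 ± 0.047 against 20.7 ± 2.07 (log2 -3.88, adjusted p = 6.41e-21). These genes were chosen after their values were seen.

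ETV1, which is rearranged and expressed in the LNCaP line from which C4-2 was derived, had 0 to 8 reads in each of the 6 C4-2 libraries.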
